A study of Rattus norvegicus with 6 samples.

Results

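The genes described here run glucose metabolism in the liver, store and release glycogen, and carry insulin and glucagon signals. They were chosen from a list of 37 gene symbols, and every probe set that the platform annotation assigns to exactly 1 of these symbols was taken. This gave 60 probe sets for 36 genes, out of 14218 genes measured with 1 symbol. RNA from 6 rat liver samples was read on 1-colour Affymetrix microarrays, on which a probe set is a group of short probes for 1 transcript. All rats first ate a fat-rich diet for 30 d to raise their cholesterol and stayed on it for another 30 d, with 1 ml of normal saline given into the stomach each day. In the probiotic group (3 samples) the saline carried Lactobacillus casei Zhang, a lactic acid bacterium, and in the high-fat group (3 samples), which is the control, it carried nothing. No group on a normal diet is included, so each difference is between animals on the same fat-rich diet. The labels give neither strain nor age, and nothing states that each sample came from its own rat, so the p-values measure the spread between these samples.

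The liver makes glucose between meals by gluconeogenesis and by breaking down glycogen, and it takes up and stores glucose after meals. Insulin acts through its receptor, the Irs adaptor proteins, phosphoinositide 3-kinase and the kinase Akt. Akt keeps the Foxo transcription factors out of the nucleus, and without that signal Foxo1 activates genes of glucose output. Glucagon acts in the opposite direction through its receptor, cAMP and the coactivator Crtc2.

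Of the 37 listed genes 34 were tested. G6pc1, the glucose-6-phosphatase, is listed only on probe sets that share several gene symbols and is not reported. Gapdh is covered only by control probe sets, and Pfkfb3 was below the signal filter on its brightest probe set. Of the 60 probe sets 45 were tested, 9 lay below the filter and 6 are controls. Values are given as log2(intensity + 16) after quantile normalization, and a gene is described by its brightest probe set, the one with the highest mean over the 6 arrays. Differences are probiotic minus high-fat on that scale, with the standard error (SE) of the limma fit.

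No member probe set passed an adjusted p of 0.05 with limma, against 0.0215% of all 18625 probe sets tested (4, all of them lower in the probiotic group). The smallest adjusted p of any member was 0.726. At an unadjusted p under 0.05 there were 3 genes with higher values (Foxo1, Foxo3 and Pck2) and 2 with lower values (Eno1 and Gys2) of 34. These shares of 8.82% and 5.88% stand beside 2.99% higher and 3.86% lower over all probe sets tested. Counted over the 45 member probe sets instead, 3 had higher (6.67%) and 4 lower values (8.89%), the other 2 lower ones being probe sets of Akt2. The groups did not overlap for 4 genes with higher values (Foxo1, Foxo3, Pck2 and Crtc2) and for 2 with lower values (Eno1 and Gys2), against 6.02% and 6.7% of all probe sets (12.7% in either direction). Over the member probe sets they did not overlap for 4 with higher and 4 with lower values (8.89% each). In all, 17 member genes lay above 0 and 17 below, with a median difference of -0.0085 beside 0.0042 over all probe sets.

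**Figure D1:**
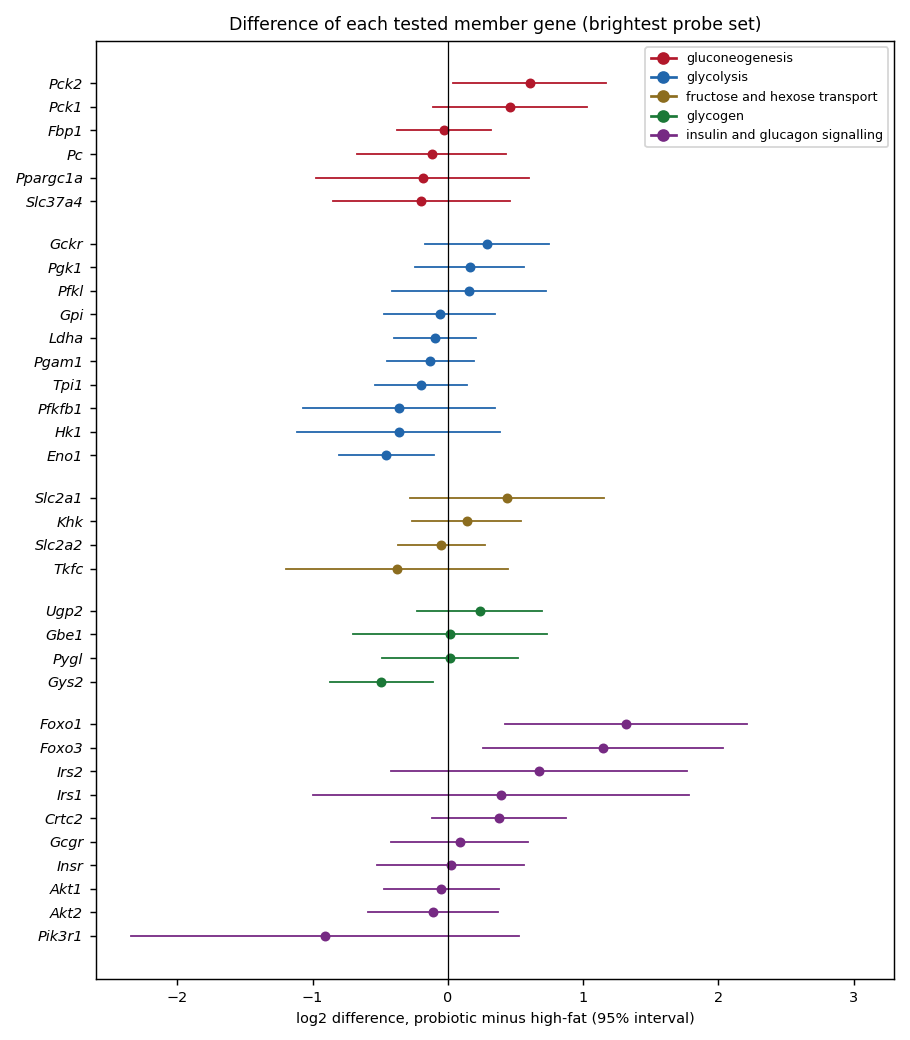
Log2 difference (probiotic minus high-fat, x axis) of the 34 tested genes, each by its brightest probe set, sorted within 5 role groups, with lines for the 95% interval of the limma fit. The intervals of Foxo1, Foxo3 and Pck2 lie above 0 and those of Eno1 and Gys2 below it, before any adjustment for the number of probe sets.

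Over all probe sets, the leading differences between arrays ran along the groups. They also ran almost in the order of the Actb gap given below, so group and RNA quality cannot be told apart here. That gap did not overlap between the groups, so a difference adjusted for it, as given below, does not separate group from RNA quality either. Correlations of arrays reached 0.943 within groups and 0.946 between them. On the first principal component, with 35.5% of the variance, probiotic samples 1, 2 and 3 scored -4.17, -51.6 and -26.1 and high-fat samples 1, 2 and 3 scored 2.95, 75.5 and 3.37. All probiotic arrays lay below 0 and all high-fat arrays above it, with the sample 2 arrays at the ends and the sample 1 arrays close together. For Actb, the log2 gap from the 3' to the 5' control probe set, which widens as RNA breaks down, was 2.08, 3.07 and 2.39 in probiotic samples 1, 2 and 3 and 1.95, 1.48 and 1.97 in high-fat samples 1, 2 and 3 (exact two-sided permutation p = 0.1, the smallest that this design allows). Hepatocyte markers were bright, with a summed intensity of 349900 to 356200 in the probiotic and 334000 to 357000 in the high-fat group (6 of 7 listed genes measured). All 8 measured markers of Kupffer cells, the liver macrophages, had lower means in the probiotic group (summed intensity 11130 to 14110 against 13760 to 19530), and all 3 measured blood markers had higher means (31210 to 57620 against 18270 to 27780). All 3 measured cholangiocyte (bile duct cell) markers, 2 of them above the filter, also had higher means (1704 to 1946 against 1318 to 1678). Stellate markers were 4 lower and 1 higher, endothelial markers 2 lower and 2 higher, and fat markers 1 lower and 2 higher. Of 6 measured pancreatic genes 2 were above the filter, and of 3 skeletal muscle genes 0 were. No marker was called after adjustment. In whole liver, fewer cells of a type and less RNA per cell cannot be told apart, and the part of cell mixture in the results below was not tested.

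Promoter windows are shown for 6 members and 1 target gene, with the letters of 4 hormone-related motifs in capitals. Each window runs from 250 bases before to 50 after the gene's start, 5' to 3' on the gene's strand, from RefSeq on GRCr8. The motifs searched on both strands were the cAMP response element TGACGTCA (in 1.83% of 33469 promoter windows of this length), the forkhead core GTAAACA (3.78%), the insulin response core CAAAACA (6.28%) and the E-box CACGTG (6.42%). Foxo1, Gys2 and Pck2 are shown from the members whose groups did not overlap. Of the others, Foxo3 and Eno1 did not have exactly 1 window of this length, and Crtc2 appears only in the counts below. Igfbp1 is shown as a textbook target of Foxo1, and Pck1, Insr and Ppargc1a as members that insulin or glucagon signals control.
Foxo1, chr2:138462724-138463023, plus strand: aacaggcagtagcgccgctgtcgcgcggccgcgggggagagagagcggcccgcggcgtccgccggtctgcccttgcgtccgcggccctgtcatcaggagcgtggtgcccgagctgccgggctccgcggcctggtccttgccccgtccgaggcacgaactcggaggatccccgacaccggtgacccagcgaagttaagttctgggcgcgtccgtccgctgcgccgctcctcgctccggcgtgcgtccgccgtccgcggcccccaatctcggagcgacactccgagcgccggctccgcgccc
Gys2, chr4:177137187-177137486, minus strand: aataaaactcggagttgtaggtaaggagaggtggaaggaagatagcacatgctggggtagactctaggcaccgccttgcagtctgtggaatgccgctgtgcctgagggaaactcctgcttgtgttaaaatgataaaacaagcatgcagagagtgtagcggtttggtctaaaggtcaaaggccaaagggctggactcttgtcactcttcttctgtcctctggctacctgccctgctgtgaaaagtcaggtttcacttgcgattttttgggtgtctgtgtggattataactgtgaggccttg
Pck2, chr15:32997603-32997902, plus strand: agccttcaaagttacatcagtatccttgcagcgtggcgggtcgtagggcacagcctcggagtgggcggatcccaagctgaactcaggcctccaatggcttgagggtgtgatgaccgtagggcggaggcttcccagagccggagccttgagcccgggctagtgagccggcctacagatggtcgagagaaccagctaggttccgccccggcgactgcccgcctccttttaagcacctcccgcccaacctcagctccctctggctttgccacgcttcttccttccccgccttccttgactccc
Igfbp1, chr14:86261027-86261326, plus strand: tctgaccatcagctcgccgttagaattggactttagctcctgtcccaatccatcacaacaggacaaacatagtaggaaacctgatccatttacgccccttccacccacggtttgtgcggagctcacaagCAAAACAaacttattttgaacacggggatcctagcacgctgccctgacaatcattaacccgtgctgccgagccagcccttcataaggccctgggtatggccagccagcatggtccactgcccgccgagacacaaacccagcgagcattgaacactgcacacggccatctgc
Pck1, chr3:182348322-182348621, plus strand: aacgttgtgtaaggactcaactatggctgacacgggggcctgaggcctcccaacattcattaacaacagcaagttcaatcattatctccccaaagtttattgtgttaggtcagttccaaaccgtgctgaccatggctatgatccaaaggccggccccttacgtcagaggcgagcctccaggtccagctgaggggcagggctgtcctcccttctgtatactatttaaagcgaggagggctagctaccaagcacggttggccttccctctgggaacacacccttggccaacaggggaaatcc
Insr, chr12:6128754-6129053, minus strand: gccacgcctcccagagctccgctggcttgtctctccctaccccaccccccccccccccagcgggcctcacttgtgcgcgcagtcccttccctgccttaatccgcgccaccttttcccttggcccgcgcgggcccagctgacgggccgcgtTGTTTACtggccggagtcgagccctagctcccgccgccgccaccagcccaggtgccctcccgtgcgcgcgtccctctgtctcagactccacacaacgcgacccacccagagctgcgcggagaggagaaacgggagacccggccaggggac
Ppargc1a, chr14:63634058-63634357, plus strand: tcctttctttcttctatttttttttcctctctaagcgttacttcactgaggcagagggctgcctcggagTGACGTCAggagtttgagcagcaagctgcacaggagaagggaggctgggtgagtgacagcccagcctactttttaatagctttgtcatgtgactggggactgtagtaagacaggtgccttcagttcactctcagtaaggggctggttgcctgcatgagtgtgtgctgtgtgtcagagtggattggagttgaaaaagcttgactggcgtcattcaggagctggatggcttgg
The Igfbp1 window held the insulin response core at position -121 from the start, the Insr window the forkhead core on the opposite strand (TGTTTAC) at -100, and the Ppargc1a window the cAMP response element at -181. The Foxo1, Gys2, Pck2 and Pck1 windows held none of the 4, which says only that these letters are not in these 300 bases. Over the 37 windows of 33 listed genes, 2 held the cAMP response element (Ldha and Ppargc1a), 2 the forkhead core (Crtc2 and Insr), 1 the insulin response core (G6pc1) and 2 the E-box (Ldha and Pfkfb3). A match is a description of the sequence and not evidence of binding.

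Insulin and glucagon signalling held the largest differences in either direction. Of its 10 genes 7 had higher and 3 had lower values in the probiotic group, with a median of 0.23, and 2 had an unadjusted p under 0.05. The median ranged from 0.01 to 0.34 with single samples left out. It was -0.02 without the pair of sample 2 arrays, 0.05 with array weights and 0.04 when adjusted for the Actb gap. Foxo1, the factor that drives glucose output when insulin is low, had a log2 signal of 9.58, 11.07 and 11.28 in probiotic samples 1, 2 and 3 and 9.36, 9.14 and 9.48 in high-fat samples 1, 2 and 3. Every probiotic value lay above every high-fat value, but probiotic sample 1 was only just above and samples 2 and 3 carried the gap. The difference was 1.32 (SE 0.398), or 2.49-fold, with an unadjusted p of 0.00861 and an adjusted p of 0.726 with limma. Without probiotic sample 1 it was 1.85 and passed (adjusted p = 0.048; range over all 17 other settings 0.048 to 0.9995), and it was 0.56 when adjusted for the Actb gap. The other tested Foxo1 probe set had a difference of 0.07, and a dim one below the filter had 0.76. The mean of the 2 tested probe sets gave 0.70.

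Foxo3, a related forkhead factor under the same control by Akt, had a log2 signal of 9.87, 11.70 and 10.65 in probiotic samples 1, 2 and 3 and of 9.62, 9.42 and 9.74 in the high-fat samples. The groups did not overlap, and probiotic sample 2 was the highest. The difference was 1.14 (SE 0.395), or 2.21-fold (adjusted p = 0.726 with limma). It was 0.66 without probiotic sample 2, 0.58 without the pair of sample 2 arrays and 0.06 when adjusted for the Actb gap. Another tested Foxo3 probe set had 0.34, and a dim one below the filter had the opposite sign (-0.38).

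**Figure D2:**
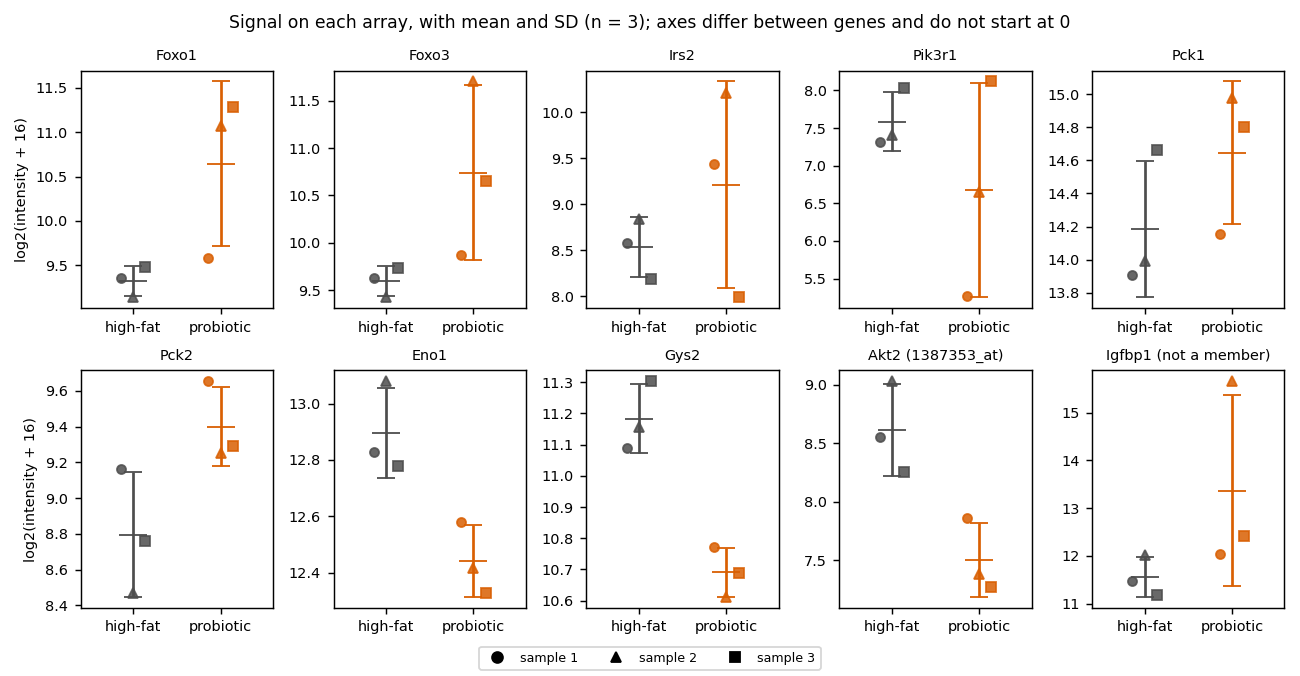
Log2(intensity + 16) on each of the 6 arrays (y axis, separate for each panel) for 8 members by their brightest probe set, for a dimmer Akt2 probe set and for Igfbp1, with group mean and SD (n = 3). Foxo1, Foxo3, Pck2 and Igfbp1 lie higher in the probiotic group and Eno1, Gys2 and the Akt2 probe set lower, without overlap, while Irs2, Pik3r1 and Pck1 overlap.

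Irs2, the adaptor that links the insulin receptor to phosphoinositide 3-kinase and a Foxo1 target, had values of 9.43, 10.20 and 7.99 in probiotic samples 1, 2 and 3 and 8.58, 8.84 and 8.19 in the high-fat samples. The probiotic samples spread on both sides of the controls. The difference of 0.67 (SE 0.487, adjusted p = 0.768 with limma) was 0.17 without probiotic sample 2, 1.27 without probiotic sample 3, 0.35 with array weights, 0.19 when adjusted for the Actb gap and 0.33 without the pair of sample 2 arrays. Pik3r1, the regulatory subunit of phosphoinositide 3-kinase, was dim and variable, at 5.27, 6.65 and 8.12 in the probiotic and 7.32, 7.41 and 8.03 in the high-fat samples. Its groups overlapped, and the difference of -0.91 (SE 0.637, adjusted p = 0.761 with limma) was -0.20 without probiotic sample 1, -1.63 without probiotic sample 3, -0.58 with a pseudocount of 64 or with array weights, and -1.46 when adjusted for the Actb gap.

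The insulin receptor gene Insr lay at 9.51, 9.15 and 9.20 in the probiotic and 9.55, 8.91 and 9.33 in the high-fat samples. The ranges overlapped almost wholly, with a difference of 0.02 and a 95% interval of -0.52 to 0.56 (adjusted p = 0.99 with limma), and a dimmer probe set had 0.31. The sign of the brighter one turned when some samples were left out. For Akt2, the kinase isoform that carries most of the metabolic insulin signal in liver, the brightest probe set differed by -0.11 (SE 0.213), but the 3 dimmer tested ones lay lower, at -0.26, -0.55 and -1.11. Of these, the probe set with the widest difference, singled out after its values were seen, had 7.87, 7.38 and 7.27 in the probiotic and 8.55, 9.03 and 8.25 in the high-fat samples. Its groups were well apart (difference -1.11, SE 0.302, 2.15-fold, unadjusted p = 0.00488 and adjusted p = 0.726 with limma), and it was -0.67 when adjusted for the Actb gap. Whether its probes or the brightest ones follow Akt2 better cannot be settled from these values.

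The other members of the signalling group differed less than Foxo1, Foxo3, Irs2 and Pik3r1. Akt1, the sister kinase of Akt2, had -0.05 on its brightest probe set and -0.39 on another tested one, while a dim one below the filter had the opposite sign (0.50). Irs1 had 0.39 with a probiotic SD of 1.21. Crtc2, the coactivator that carries the glucagon signal to cAMP-responsive genes, had 9.84, 9.65 and 9.29 in the probiotic and 9.26, 9.14 and 9.25 in the high-fat samples, which do not overlap, with a difference of 0.38 (SE 0.219, adjusted p = 0.74 with limma). The glucagon receptor gene Gcgr had a difference of 0.09 (95% interval -0.42 to 0.59).

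**Figure D3:**
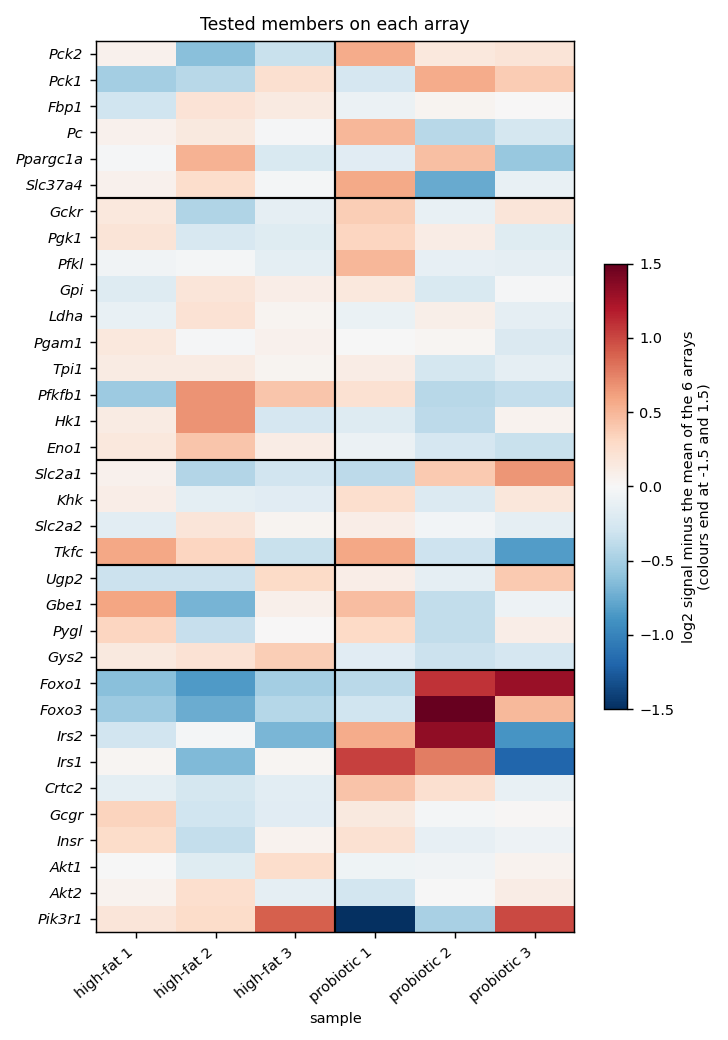
Log2 signal of the 34 tested genes (rows, grouped by role between the black lines) on the 6 arrays (columns), each gene minus its mean over the arrays. The strongest colours are in the signalling group, where Foxo1 and Foxo3 are high in probiotic samples 2 and 3 and Pik3r1 is low in probiotic sample 1, and the glycolysis genes vary little by comparison.

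In gluconeogenesis, the making of new glucose, the 2 phosphoenolpyruvate carboxykinase genes had higher means in the probiotic group and the other 4 tested genes lower ones, with a median of -0.08. Pck1, the cytosolic enzyme whose transcription insulin represses and glucagon raises, had a log2 signal of 14.16, 14.98 and 14.80 in probiotic samples 1, 2 and 3 and 13.90, 13.99 and 14.66 in the high-fat samples. High-fat sample 3 lay within the probiotic range. The difference of 0.46 (SE 0.252, adjusted p = 0.736 with limma) was 0.29 without probiotic sample 2, 0.70 without probiotic sample 1 or high-fat sample 3, 0.19 without the pair of sample 2 arrays and -0.05 when adjusted for the Actb gap.

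Pck2, the mitochondrial form of that enzyme, had 9.65, 9.25 and 9.29 in the probiotic and 9.16, 8.47 and 8.76 in the high-fat samples. The groups did not overlap, although the lowest probiotic value was close to the highest control value. The difference was 0.60 (SE 0.253), or 1.52-fold (unadjusted p = 0.0395 and adjusted p = 0.726 with limma). A dimmer Pck2 probe set had the opposite sign (-0.86, SE 0.64), and the mean of both gave -0.13, so the direction for this gene depends on the probe set.

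Ppargc1a, the coactivator that raises gluconeogenic genes in fasting, had 7.58, 8.21 and 7.19 in the probiotic and 7.74, 8.27 and 7.53 in the high-fat samples. These overlapped, with a difference of -0.19 (SE 0.35, adjusted p = 0.918 with limma) that turned sign without probiotic sample 3 (0.05) or high-fat sample 2 (0.03). Another tested probe set had -0.02, and one below the filter lay lower in the probiotic group, at a mean of 4.47 against 5.37. Fbp1, fructose-1,6-bisphosphatase, had a difference of -0.03 (95% interval -0.38 to 0.32), the pyruvate carboxylase gene Pc -0.12 and the glucose-6-phosphate transporter gene Slc37a4 -0.20. Slc37a4 ran from 11.65 to 12.97 in the probiotic samples, which held all 3 high-fat values within their range.

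Glycolysis, the breakdown of glucose to pyruvate, had 7 of 10 tested genes with lower means in the probiotic group. The median of -0.11 ranged from -0.18 to -0.06 with single samples left out, and it was -0.0045 without the pair of sample 2 arrays and 0.09 when adjusted for the Actb gap. Eno1, the enolase gene, had 12.58, 12.42 and 12.33 in probiotic samples 1, 2 and 3 and 12.83, 13.08 and 12.78 in the high-fat samples. All probiotic values lay below all high-fat values by a small margin. The difference was -0.45 (SE 0.155), or 1.37-fold lower, with an unadjusted p of 0.0162 and an adjusted p of 0.726 with limma, and it was -0.29 when adjusted for the Actb gap. With median centring the unadjusted p of Eno1 was 0.16 with limma.

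The other tested glycolytic genes lay between -0.36 and 0.29. Hk1, a hexokinase of non-hepatocyte cells for the most part, and Pfkfb1, the liver enzyme that sets fructose-2,6-bisphosphate, each had a difference of -0.36, with SEs of 0.334 and 0.315. High-fat sample 2 had the highest value of both, at 8.18 and 12.21. Tpi1, triosephosphate isomerase, had -0.20, the mutase gene Pgam1 -0.13, lactate dehydrogenase A, Ldha, -0.09 and the isomerase gene Gpi -0.06. Gckr, the protein that holds glucokinase in the nucleus, had 0.29 (SE 0.205), and the liver phosphofructokinase gene Pfkl 0.16. Pgk1 had 0.16 on its brightest probe set and -0.29 on another tested one.

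Pfkfb3, the inducible sister of Pfkfb1, was not tested, and its brightest probe set had 6.52, 6.85 and 6.17 in the probiotic and 6.59, 4.76 and 5.09 in the high-fat samples, around the filter threshold of 6.30. Its 2 dimmer probe sets had the opposite sign (-0.59 and -0.02). Gapdh was read by its control probe sets, whose means differed by -0.06 at the 3' end, -0.29 in the middle and -0.64 at the 5' end. The difference was wider towards the 5' end. The 3' to 5' gap of Gapdh was 1.17 ± 0.463 (SD, n = 3) in probiotic samples and 0.594 ± 0.14 (SD, n = 3) in high-fat samples (exact two-sided permutation p = 0.2). RNA quality was examined only by comparing the gaps of Actb and Gapdh between groups and by adding the Actb gap to the fit.

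Of 4 glycogen genes, 3 had slightly higher means in the probiotic group and Gys2 a lower one. The median of 0.02 ranged from -0.24 to 0.21 with single samples left out. Gys2, the liver glycogen synthase, had a log2 signal of 10.77, 10.61 and 10.69 in probiotic samples 1, 2 and 3 and 11.09, 11.16 and 11.30 in the high-fat samples. The groups did not overlap and both were tight, with SDs of 0.0787 and 0.110. The difference was -0.49 (SE 0.169), or 1.41-fold lower (unadjusted p = 0.0167 and adjusted p = 0.726 with limma), and it ranged from -0.54 to -0.42 over 17 other settings. With median centring the unadjusted p of Gys2 was 0.194 with limma. Gbe1, the branching enzyme, had 0.02, the liver phosphorylase gene Pygl 0.01 and Ugp2, which makes UDP-glucose, 0.23 (95% interval -0.23 to 0.70). Pygl and Gbe1 had their lowest values in both sample 2 arrays, at 12.44 and 12.47 for Pygl and 13.11 and 12.77 for Gbe1 in the probiotic and high-fat group.

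**Figure D4:**
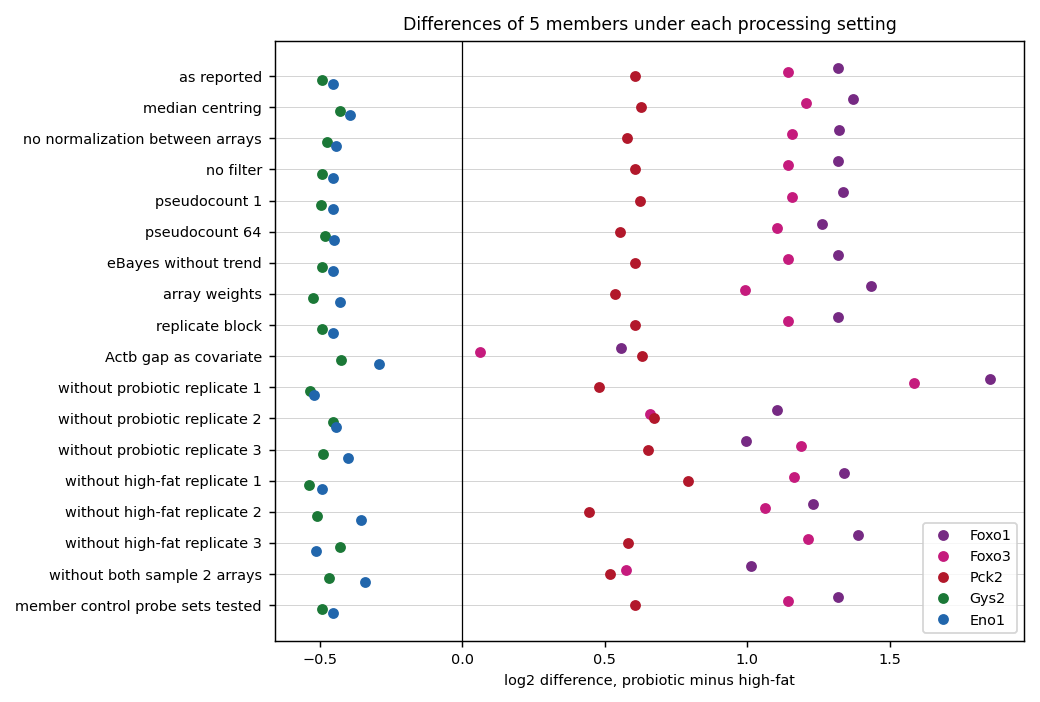
Log2 difference (probiotic minus high-fat, x axis) of Foxo1, Foxo3, Pck2, Gys2 and Eno1 as reported and under 17 other settings (y axis). All points of a gene stay on 1 side of 0, those of Gys2 between -0.54 and -0.42. Foxo3 drops to 0.06 when adjusted for the Actb gap. The filter, variance trend, replicate block and control probe set settings cannot move a point. The mean of a gene's probe sets, which turned Pck2 to -0.13, is not drawn.

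Genes of fructose use and hexose transport had 2 higher and 2 lower means and a median of 0.05, which ranged from -0.03 to 0.12 with single samples left out. Slc2a2, the main glucose transporter of hepatocytes, differed by -0.05 (95% interval -0.37 to 0.27) and Khk, the fructokinase, by 0.14. Slc2a1, a transporter of most cell types, had 7.87, 8.65 and 8.92 in the probiotic and 8.33, 7.83 and 7.97 in the high-fat samples, a difference of 0.44 (SE 0.32). Probiotic sample 1 was among the controls. Tkfc, the triokinase of fructose metabolism, had -0.38 (SE 0.365) on its brightest probe set and 0.33 on another.

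**Figure D5:**
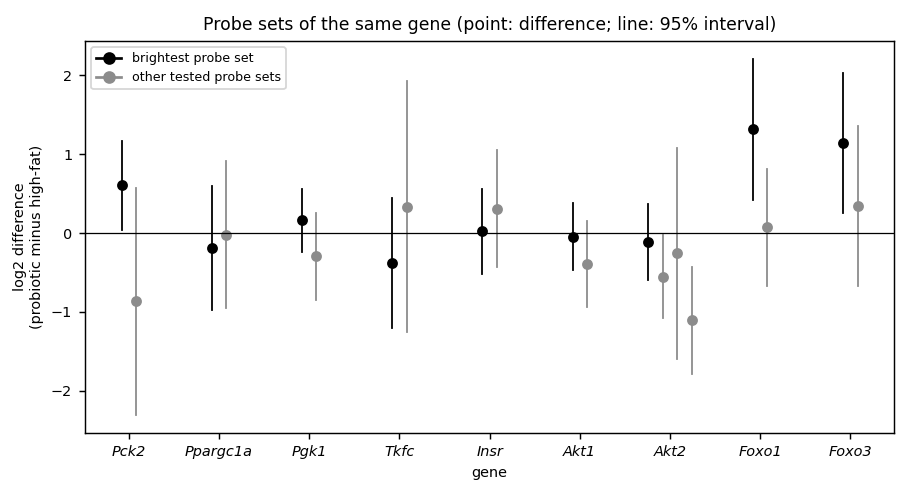
Log2 difference (probiotic minus high-fat, y axis) with its 95% interval for each tested probe set of the 9 member genes that have more than 1, the brightest in black. For Pck2, Pgk1 and Tkfc the signs differ between probe sets, and for Foxo1, Foxo3 and Akt2, among others, the sizes do.

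Foxo1, Foxo3, Irs2, Pik3r1, Insr, Pck1, Pck2, Ppargc1a, Eno1 and Gys2 apart, 24 tested members remain, Crtc2 and Slc2a1 among them. By the brightest probe set, their differences ran from -0.38 to 0.44. The smallest unadjusted p among them was 0.119, and their adjusted p ranged from 0.74 to 0.995, with limma. Some dimmer probe sets lay outside these ranges, such as those of Akt2 at -0.55 and -1.11. The level of each role group per array, taken as the mean of its genes after subtracting each gene's mean over the arrays, overlapped between the groups for gluconeogenesis, glycolysis, glycogen and fructose and hexose transport. For insulin and glucagon signalling it was -0.05, 0.43 and 0.07 in probiotic samples 1, 2 and 3 and -0.07, -0.29 and -0.08 in the high-fat samples. These do not overlap, but probiotic sample 1 and high-fat samples 1 and 3 were nearly level, and the sample 2 arrays gave the widest gap.

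A list of 72 other genes of the same pathways gave 62 with a probe set and 58 tested. Of these, 34 had higher and 24 lower means, with a median of 0.09, and with limma 0 passed the adjusted threshold. At an unadjusted p under 0.05 there was 1 gene with higher values (1.72%) and 0 with lower values. Over all probe sets tested these shares were 2.99% and 3.86%. That gene was Igfbp1, which encodes a secreted binding protein for insulin-like growth factors and is a textbook target that insulin represses through Foxo1. It had 12.04, 15.66 and 12.41 in probiotic samples 1, 2 and 3 and 11.47, 12.01 and 11.19 in the high-fat samples. Probiotic sample 2 stood far above the rest and the other probiotic samples just above the controls. The difference of 1.81 (SE 0.781, 3.51-fold, adjusted p = 0.726 with limma) was 0.67 without probiotic sample 2, 0.89 without both sample 2 arrays and -0.06 when adjusted for the Actb gap. Ppp1r3b, which targets a phosphatase to glycogen in liver, came next at 1.11 (unadjusted p = 0.0504 with limma) and is named after its value was seen.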

How the data were processed

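Liver total RNA was made into biotinylated cRNA for 1-colour Affymetrix arrays, per the labels' protocols. For each array, a linear intensity of every probe set was deposited by the authors, and how it was computed is not given in the sources used here. With 2% of probe sets trimmed at either end, each array had a mean of 500.3, and median intensities ranged from 90.4 to 147.2. Such scaling leaves the shapes of the distributions unequal, so log2(intensity + 16) was quantile normalized, which removes any overall shift between groups. The number of arrays limits the precision.

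Of 31099 probe sets, 57 controls were left out of the test, and 18625 whose mean reached percentile 40 were tested. The comparison used limma 3.58.1 and R 4.3.3 (lmFit, eBayes with trend, two-sided, Benjamini-Hochberg over all probe sets tested, threshold 0.05). A fold understates changes of dim probe sets. The script was tested on simulated data. Members, gene lists and tests were chosen with earlier results of these data known. Full values are given for members with an unadjusted p under 0.05 or a difference of at least 0.5 by the brightest probe set, and for Pck1, G6pc1 (no value here), Ppargc1a, Irs2, Insr and Foxo1 as hormone-controlled genes; other probe sets of a gene are given where they differ in sign or by over 1.5 times; other pathway genes are named at an unadjusted p under 0.05. Alternatives covered the normalization, filter, pseudocount (1 and 64), variance model, array weights, replicate number as a block, the Actb gap as a covariate, the mean of a gene's probe sets and samples left out. Testing the control probe sets of members was added after seeing the data. Figures were drawn with matplotlib 3.10.9.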

Additional observations from a re-analysis of the deposited data

How the results depend on the processing

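No member passed the adjusted test under 16 of 17 other settings, and 1 did without probiotic sample 1 (Foxo1). Foxo1, Foxo3, Pck2, Eno1, Gys2, Irs2 and Pik3r1 kept their direction under all 17, but the mean of its probe sets turned Pck2 to -0.13. Some of the 17 cannot change the difference of a probe set, so they say nothing about its direction. These are no filter, no variance trend, the replicate block and the testing of control probe sets. Over all probe sets, the count at an unadjusted p under 0.05 was 1275 as reported, 1989 without the filter (more probe sets tested), 423 when adjusted for the Actb gap (the covariate below) and 703 without both sample 2 arrays, and 795 to 1772 with single samples left out. Of the same 18625 probe sets it was 955 with median centring, 1244 without normalization and 1333 with a pseudocount of 64. Without the variance trend it was 1141, and with array weights 1711. Called probe sets were 0 to 6 higher and 3 to 8 lower with single samples left out, and 1 was higher without both sample 2 arrays. Member genes at an unadjusted p under 0.05 were 1 to 4 higher (3 as reported) and 1 to 4 lower (2 as reported) with single samples left out, and called member probe sets 0 to 1. With the covariate 1 was higher and 0 lower, without both sample 2 arrays 0 higher and 1 lower, with median centring 0 lower and without the variance trend 1 lower. The lower counts were 1 without high-fat sample 2 or 3 and 4 without probiotic sample 1, and the higher count was 1 without high-fat sample 2.

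The count over all probe sets also moved with the settings, as given above, for instance to 1711 with array weights from 1275 as reported. Other pathway genes at that threshold were 1 higher and 0 lower as reported. They were 2 higher with median centring, without normalization, without the filter, with a pseudocount of 64 and without both sample 2 arrays, 5 higher and 2 lower with array weights, 0 higher and 2 lower with the covariate, 0 higher without the variance trend, and 0 to 5 higher and 0 to 4 lower with single samples left out. The median of gluconeogenesis was 0.182 with the covariate, 0.142 without both sample 2 arrays and -0.153 to 0.0945 with single samples left out. That of glycolysis was 0.0926 with the covariate, and that of signalling -0.0212 without both sample 2 arrays and 0.0149 to 0.339 with single samples left out. The dimmest tested Akt2 probe set turned to 0.226 with array weights, 0.927 with the covariate and 0.464 without both sample 2 arrays, and ran from -0.688 to 0.232 with single samples left out. Igfbp1 turned to -0.058 and Pck1 to -0.0541 with the covariate. Insr turned to -0.0713 with array weights and -0.0895 without both sample 2 arrays, and ran from -0.158 to 0.164 with single samples left out, as Ppargc1a did from -0.462 to 0.0497. The cause of these changes was not tested.

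Same-numbered samples deviated from their group means with correlations of 0.144, 0.027 and 0.0774, and differently numbered ones with -0.141 to 0.0674. Probiotic sample 2 correlated best with high-fat sample 3, and every other sample with its own number. Whether the numbers mark pairs cannot be settled from these values. With the replicate number as a block, 1527 probe sets had an unadjusted p under 0.05, no member passed the adjusted test, 4 member genes lay higher and 2 lower at the unadjusted threshold (Pck1 among the higher ones, with an unadjusted p of 0.0331 with limma), 2 other pathway genes lay higher and 1 lower at the unadjusted threshold, and Foxo1 had an adjusted p of 0.578 with limma.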

Other observations

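Hk1 is also covered by 3 hexokinase control probe sets, which the comparison left out. All were dim, with group means from 4.64 to 5.82 on the log2 scale. Their differences were -0.79 at the 3' end, -0.33 in the middle and 0.61 at the 5' end, and only the groups of the last did not overlap. A dim Pgk1 probe set below the filter had 4.98, 5.59 and 6.22 in the probiotic and 4.39, 4.25 and 4.52 in the high-fat samples, while its 2 brighter probe sets had differences of 0.16 and -0.29. Among the 58 other pathway genes tested, the groups did not overlap for 3 with higher values, Igfbp1 included, and 3 with lower values (5.17% each). Over all probe sets these shares were 6.02% and 6.7%. Rps6kb1, a kinase downstream of insulin, had a difference of 0.57 and the protein kinase A subunit gene Prkacb 0.11. Mdh2, a malate dehydrogenase, had -0.30, Pdk1, which inhibits pyruvate dehydrogenase, -0.28 and the inositol phosphatase gene Inppl1 -0.29. None of these passed the adjusted test with limma, and, Igfbp1 apart, they were named after their values were seen.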
